A study of Mus musculus
Mus spretus with 18 samples.

Results

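The exons described here are the alternative exons of skipped exon (SE) events that lie between 2 short introns, each of 500 bp or less from the exon to the neighbouring exon. They were taken from the SE table of fibroblasts by their coordinates and by read number alone, as autosomal events with 20 or more reads over their junctions in every one of 4 libraries. Of the 67961 events in the table, 5709 had both flanking introns within the limit, of which 214 lay on the X chromosome and 595 autosomal ones had too few reads, so that 4900 events remained. These hold 4573 distinct exons of 2197 genes and were set beside the other 49635 of the 54535 events tested, of which 12898 had 1 short intron and 36737 had none. The limit cut through a continuum: 95 events whose longer intron measured 491 to 500 bp had a median change in inclusion of -0.00529 after pladienolide B, and 107 events at 501 to 510 bp had -0.0046. Of the 2197 genes, 2187 were found by symbol in the RefSeq annotation of GRCm38.p6, and 2166 of these are protein coding.

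All 4 libraries came from a fibroblast line of F1 hybrid mice, C57BL/6J x SPRET/EiJ, and so carry 1 allele of each strain. In 2 libraries the cells had received 0.1 µM pladienolide B for 4 h, and in the 2 control libraries the solvent DMSO for 4 h. The cells are 1 line, and the labels do not say whether the libraries of a condition came from separate cultures, so that the p-values measure the spread between these libraries, which may be technical. The libraries held between 129067054 and 151755602 junction reads over the SE table, of which the exons between short introns took 13.9% in both DMSO libraries and 15.7% in both pladienolide B libraries. Their median number of reads per event was 1252.5 and 1242 in DMSO and 429 and 497 after pladienolide B. All 15 fibroblast markers examined had over 1 TPM (a transcript level scaled by gene length and library total) in each library, whereas Epcam, Ptprc, Pecam1, Myod1 and Pou5f1, which mark other cell types, were under 0.1 TPM in each. Of 5 epithelial and 5 leukocyte markers, 1 each exceeded 1 TPM in all libraries.

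Pladienolide B is a macrolide that binds the SF3B complex of the U2 small nuclear ribonucleoprotein, the particle that recognises the branch point of an intron. Splice sites can be paired across an exon or across an intron. Pairing across the exon is thought to prevail where long introns surround a short exon, and pairing across the intron where the intron is short. Failure of the former is commonly seen as a skipped exon, and failure of the latter as a retained intron. Inclusion was measured as percent spliced in (PSI), the share of inclusion-supporting junction reads after division by the effective length of each form, on a scale from 0 to 1. ΔPSI is the mean PSI of the pladienolide B libraries minus that of the DMSO libraries, its error is the standard error from the spread between libraries with n = 2 for each condition, and an event was called at an FDR under 0.05 with an absolute ΔPSI of at least 0.1.

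Most exons between short introns stayed almost fully included after pladienolide B, and those that changed were skipped more. The mean PSI over the 4900 events was 0.964 in both DMSO libraries, and 0.94 and 0.936 in the pladienolide B libraries. A PSI under 0.9 was found for 5.14% of the events in either DMSO library, and for 12.1% and 13% after pladienolide B. In the quasi-binomial test with Benjamini-Hochberg adjustment over all events, 244 of the 4900 events (4.98%) were called, 243 of them with lower and 1 with higher inclusion. Over all 54535 events tested, 6.59% were called, 6.5% with lower and 0.0972% with higher inclusion. At any size of change, 599 of the events (12.2%) had an FDR under 0.05, against 12.3% of all events tested. The 244 calls covered 240 distinct exons of 182 genes, their median ΔPSI was -0.24, and 31 of them had lost at least 0.5.

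These counts depend on how the table was filled. None of the 54535 events tested lacked skipping reads in all 4 libraries, so an exon with no skipping read in DMSO was listed only if pladienolide B had given it some, and its PSI then had to fall. This applied to 2050 of the 4900 events, 99 of which were called, against 746 events with skipping reads in DMSO only, none of which was called. Among the 1076 events with skipping reads in each of the 4 libraries, where neither direction was set by the listing, 803 had a lower PSI after pladienolide B, 101 were called, and 100 of these fell. Their median ΔPSI was -0.00755, beside -0.00856 for the 10826 other events listed in the same way.

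The number of calls also depended on the libraries. With any 1 of the 4 libraries left out, the quasi-binomial test called 0 of the events, while between 339 and 755 of them had an unadjusted p under 0.05. limma on log2 ratios of the reads called 261 with all libraries, 271 and 225 without pladienolide B replicate 1 and 2, and 0 without either DMSO replicate, with 1351 and 1322 events at an unadjusted p under 0.05 in the last pair of fits. With 1 library left out, the lone library of its condition was assumed to vary like the remaining ones. The conditions did not vary alike in PSI. The mean absolute difference between replicates over the 4900 events was 0.00532 in DMSO and 0.0228 after pladienolide B.

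**Figure D1:**
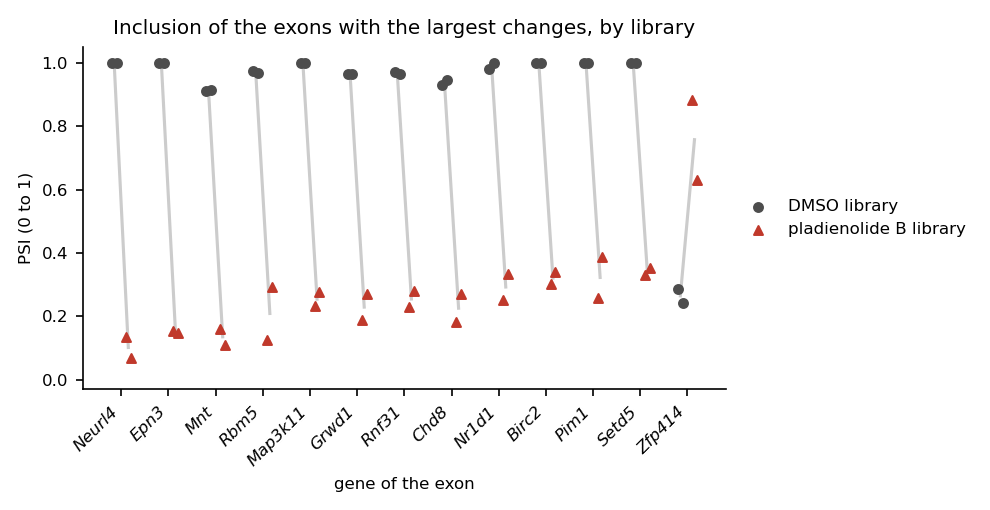
PSI (vertical axis, 0 to 1) in each of the 4 libraries for the exons between short introns with the largest called changes, 1 exon per gene; circles are DMSO libraries, triangles pladienolide B libraries, and lines join the means of the 2 conditions. The first 12 exons run from 0.911 or more in DMSO to 0.388 or less after pladienolide B, and Zfp414 runs the opposite way.

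The largest fall was that of a 159-bp exon of Neurl4 (ENSMUSG00000047284 on chromosome 11, mm10 69906730 to 69906888), which encodes a centriolar protein of the Neuralized family. Its PSI was 1 in both DMSO libraries, and 0.134 and 0.0693 after pladienolide B, a ΔPSI of -0.898 ± 0.0325 (adjusted p = 0.00162). An exon of Epn3, which encodes an endocytic adaptor of the epsin family, went from 1 in both DMSO libraries to 0.152 and 0.147 (-0.85 ± 0.0026). In both cases the exon was included in nearly every spliced transcript of DMSO-treated cells and in few after pladienolide B. With no skipping read in DMSO, both were listed only for their skipping reads after treatment, so their PSI could only fall. That the libraries of the conditions did not overlap was a condition for being named here. Depth was modest there: the Neurl4 exon had 38 and 54 reads and the Epn3 exon 21 and 26 reads in the pladienolide B libraries. The errors given reflect only the gap between the pladienolide B libraries, since the DMSO libraries were both at 1. They leave out the sampling of so few reads and make the values look more precise than they are.

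Regulators of transcription and chromatin were among the other exons with large falls. The 42-bp exon of Mnt, a MAX-binding repressor of the MYC network, had a PSI of 0.911 and 0.915 in DMSO and of 0.161 and 0.11 after pladienolide B. Chd8, a chromatin remodeller, had 0.931 and 0.946 against 0.181 and 0.271. The exon of Setd5, a SET domain protein, was included fully in DMSO and had 0.332 and 0.352 after treatment, and that of Nr1d1, the circadian repressor REV-ERBα, had 0.982 and 1 against 0.252 and 0.333. The Setd5 exon spans 59 bp and the Mnt exon 42 bp, so both are short, but only the latter has a length divisible by 3.

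The remaining 6 of these 12 exons lay in Rbm5, Map3k11, Pim1, Rnf31, Birc2 and Grwd1. An exon of Rbm5, which encodes a splicing regulator, had a PSI of 0.973 and 0.969 in DMSO, and of 0.124 and 0.294 after pladienolide B, with a fall in reads from 3627 and 3279 to 44 and 104. Map3k11, a kinase upstream of JNK, went from 1 in both DMSO libraries to 0.232 and 0.276, and Pim1, a serine/threonine kinase, from 1 to 0.258 and 0.388. Rnf31, the catalytic subunit of the linear ubiquitin chain assembly complex, had 0.972 and 0.965 in DMSO against 0.231 and 0.279. Birc2, an inhibitor of apoptosis with ubiquitin ligase activity, had 1 in both against 0.301 and 0.34, and Grwd1, a histone-binding protein of ribosome assembly, had 0.964 and 0.965 against 0.189 and 0.27. These 12 largest falls were picked from called exons whose libraries did not overlap between conditions, and their adjusted p ran from 0.00101 to 0.00275. The exons of Neurl4, Epn3, Setd5, Map3k11, Pim1 and Birc2 had no skipping read in DMSO, so the listing had set their direction. Of the 37 named exons that were called, 15 had a skipping read in each library. A lower PSI without overlap was found for 33.6% of the 4900 events and for 32.7% of all events tested.

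Transcript level was lower in both pladienolide B libraries for most genes with these falls, namely Neurl4, Epn3, Rbm5, Grwd1, Rnf31, Chd8, Birc2, Setd5 and Map3k11. It was higher in both for Pim1, Nr1d1 and Mnt. The TPM of Pim1 was 38.9 and 39.3 in DMSO and 90 and 111 after pladienolide B, and that of Nr1d1 was 12.6 and 12.1 against 23.2 and 27.4. Rbm5 had 39.2 and 37.2 TPM in DMSO and 5.4 and 6.12 after treatment. TPM is a share of the RNA in a library, so that less of a transcript per cell and more of other transcripts cannot be told apart, nor can fewer cells of a type and less RNA per cell.

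The single call with higher inclusion was a 77-bp exon of the zinc finger gene Zfp414 on chromosome 17 (33629622 to 33629698). Its PSI was 0.286 and 0.244 in DMSO, and 0.884 and 0.631 after pladienolide B, a ΔPSI of 0.493 ± 0.128 (adjusted p = 0.0182 in the quasi-binomial test and 0.0657 in limma). The 2 treated libraries were both far above the controls but differed more from each other than those of any of the 12 largest falls. In all, 18 of the 4900 events had a ΔPSI of 0.1 or more and 363 had -0.1 or less.

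**Figure D2:**
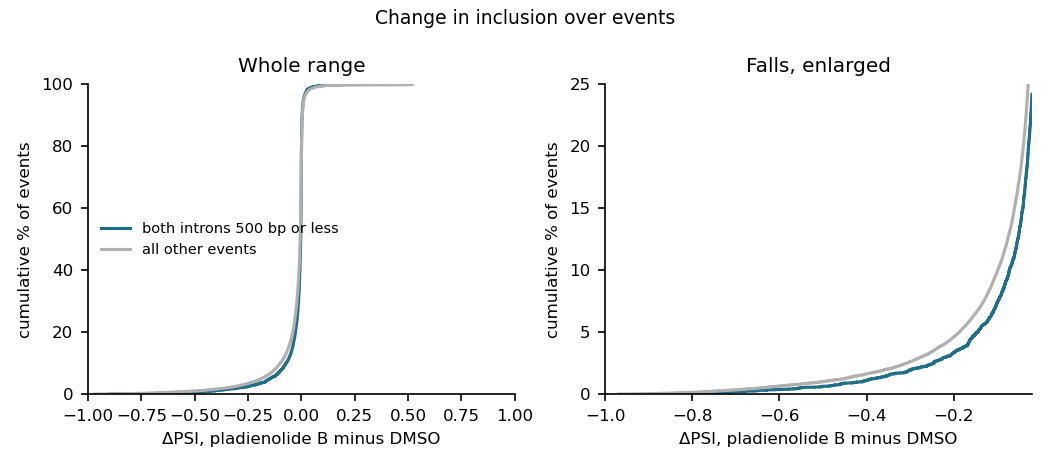
Cumulative percent of events (vertical axis) by ΔPSI, pladienolide B minus DMSO (horizontal axis), for the 4900 events between short introns and the 49635 other events; the left panel shows the whole range and the right panel enlarges the falls. Both curves rise steeply at 0, and the curve of the exons between short introns lies below the other on the side of the falls, with 7.41% against 9.87% of events at -0.1 or less.

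Genes were grouped by function with lists chosen by name. Among splicing factors and regulators, 13 of 136 events were called, all of them lower, and the median ΔPSI was -0.00427, beside 6.59% called and a median of -0.00524 over all events tested. Sf1, which binds the branch point before the U2 particle, had a PSI of 1 and 0.996 in DMSO and of 0.872 and 0.873 after pladienolide B. Puf60, which takes part in recognising the 3′ splice site, had 0.988 and 0.991 against 0.739 and 0.613, and Ptbp2, the neuronal polypyrimidine tract-binding protein, had 1 in both against 0.847 and 0.834. The libraries of the conditions were apart for each of them, but these exons were picked from the called ones. A lower PSI without overlap was found for 240 of the 244 called events and for 32.7% of all events tested. Over all events of these genes whatever the intron length, 9.49% were called, beside 9.56% of those between short introns.

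Among chromatin and transcription regulators, 13 of 133 events fell (9.77%), with a median of -0.008, and 12.3% of all events of these genes were called, beside the 6.59% of all events tested. Of the 13 calls, 5 were events of the single gene Brd2, among them overlapping exons. The exons of Bap1, a deubiquitinase of histone H2A, and Brd2, a bromodomain protein, had ΔPSI values of -0.12 and -0.169. In ubiquitin and proteasome genes 11 of 149 fell (7.38%, beside 8.69% of all their events), among them exons of the deubiquitinases Usp7 (0.875 and 0.919 after pladienolide B) and Usp19 (0.897 and 0.859) and of the F-box gene Fbxo11 (0.755 and 0.779), all at 0.997 or above in both DMSO libraries. In genes of DNA replication, repair and cell division 8 of 151 fell (5.3%, beside 6.66% of all their events). The exon of Aurkb, a mitotic kinase, had 0.82 and 0.822 after treatment, that of Polm, DNA polymerase mu, had 0.736 and 0.815, and that of Ccnl2, a cyclin that associates with splicing factors, had 0.541 and 0.508.

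The list of cell death and p53 genes was small, with 4 of 21 events called (19%), all lower, beside 12.8% of all 265 events of these genes and 6.59% of all events tested. The 54-bp exon of Fas, the death receptor, went from a PSI of 1 in both DMSO libraries to 0.491 and 0.508, and an exon of 29 bp of Tnfrsf1a, a receptor for TNF, from 1 and 0.999 to 0.848 and 0.827. The Gadd45b exon had 1 in both DMSO libraries against 0.882 and 0.889. This stress-induced gene went from 210 and 202 to 1922 and 2409 TPM, and the junction reads of the event from 5215 and 5184 to 9367 and 13178.

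In the other lists the shares of calls were under that of all events tested. In ribosomal proteins and translation factors 4 of 229 fell, with a median of 7972 reads in the library with fewest. The exon of Eif5, an initiation factor, had 0.98 and 0.984 in DMSO against 0.562 and 0.481, and Rps6kb2, an S6 kinase that the list took up by its symbol, had 0.938 and 0.972 against 0.71 and 0.579. In extracellular matrix and adhesion genes 2 of 179 fell, namely exons of the focal adhesion protein Zyx (0.911 and 0.919 against 0.59 and 0.594) and of the fibronectin receptor subunit Itga5 (0.993 and 0.998 against 0.876 and 0.851). In mitochondrial and metabolic genes 2 of 98 fell, in Mrps2 of the mitochondrial ribosome and Acads, the short-chain acyl-CoA dehydrogenase. Kinase and small GTPase genes had 4 of 139 lower, with Stk16 and Arhgef2 at ΔPSI values of -0.102 and -0.144 beside Map3k11, and cytoskeleton and motor genes had 1 of 61, in the dynein heavy chain Dync1h1 (-0.122). None of the 10 lists had an event called with higher inclusion. The shares called were 1.75% in the translation list, 1.12% in the matrix list, 2.04% in the mitochondrial list, 2.88% in the kinase list and 1.64% in the cytoskeleton list, each under the 6.59% of all events tested. Over all events of the same genes whatever the intron length they were 2.84%, 0.971%, 2.24%, 7.26% and 2.21%.

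The exons with the shortest introns differed among themselves. Those of Dalrd3, between introns of 76 and 69 bp, had a PSI of 1 and 0.985 in DMSO and of 0.866 and 0.909 after pladienolide B, which just passed the test (adjusted p = 0.0486). Tmem259, which encodes membralin of the endoplasmic reticulum, had introns of 72 and 71 bp and a PSI of 0.997 and 0.995 against 0.964 and 0.968, a change under the limit of 0.1. For Gnptg, a subunit of the phosphotransferase that marks lysosomal enzymes, and Cpsf1, a cleavage and polyadenylation factor, ΔPSI was -0.000561 and 0.00115. The Wdr90 exon, between introns of 76 and 66 bp, had 0.832 and 0.864 in DMSO and 1 and 0.979 after treatment, with an adjusted p of 0.0639. Very short introns thus held an exon that was called, exons near full inclusion throughout and an exon whose values were higher after treatment without passing the test.

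At the other end of read depth, the exons with the most reads hardly moved. Actb and Actg1, the cytoplasmic actins, had ΔPSI values of -0.00214 and -0.000107, and Fth1, the ferritin heavy chain, had -0.00186. For the elongation factor Eef1a1 and for Tpt1 the values were -8.96e-05 and -5.15e-06. Between 107052 and 762004 reads covered each of these exons in each library. The adjusted p of Actb (0.0074) and Fth1 (0.00328) was under 0.05, but their changes were far below 0.1.

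Genes with several exons between short introns ranged from no call to a call at every event. Col1a1, Lrp1, Atxn2l and Brd2 were chosen as examples after their values were seen. Of the 248 genes with at least 5 such events, 217 had no call, and 43 of the 182 genes with a call had more than 1. Col1a1, the collagen I chain with the most events of any gene (21 events, 17 exons), had ΔPSI values between -0.000711 and 0.000146. In Lrp1, an endocytic receptor, 16 events lay between -0.00523 and 0.00126. Depth was high there, with a median of 18201 reads in the library with fewest for Col1a1 and 3481.5 for Lrp1.

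Neurl4 and Atxn2l showed the opposite. Of the 6 Neurl4 events 4 were called, with ΔPSI values from -0.898 to -0.503, while an exon at 69909217 to 69909378 had a PSI of 1 in both DMSO libraries and of 0.895 and 0.871 after pladienolide B and did not pass the test (adjusted p = 0.111). Among the Neurl4 calls, the entries that start at 69906726 and at 69906730 overlap, share the downstream intron of 95 bp and so share reads. The former had a PSI of 0.159 and 0.242 after treatment. In Atxn2l, a gene of RNA granules, 5 of 9 events were called. The exon at 126500723 to 126500873 on chromosome 7 was listed with 2 upstream introns: with the 382-bp intron its PSI was 0.492 and 0.387 after treatment, and with the 229-bp intron it was 0.979 and 0.97, all against at least 0.999 in DMSO. Both entries share the downstream intron of 469 bp and so share reads.

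All 5 events of Brd2 were called, and 4 of them by similar amounts. Their exons had a PSI of at least 0.996 in DMSO and between 0.848 and 0.899 after pladienolide B, with ΔPSI values from -0.143 to -0.112. The remaining exon of 92 bp was included in a minority of transcripts in DMSO (0.198 and 0.202) and in fewer after treatment (0.0354 and 0.027). Brd2 itself had 122 and 114 TPM in DMSO against 124 and 154.

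The share of calls was lower than in the rest of the table, 4.98% against 6.75% of the 49635 other events. Depth and starting inclusion differed between them as well: the median number of reads in the library with fewest was 419.5 against 230, and 81.5% against 78.9% of the events had a mean PSI over 0.99 in DMSO. In events with 20 to 49 reads in the library with fewest, 9.64% of the exons between short introns and 10.9% of the others were called. The shares were 11.4% and 12.4% with 50 to 99 reads, 10.5% and 9.9% with 100 to 199, 4.48% and 5.56% with 200 to 499, and 1.49% and 2.24% with 500 to 1999. In the class with 2000 reads or more they were 0.266% and 0.469%. The exons between short introns had the lower share in each class but that of 100 to 199 reads. Events of 1 gene are not independent, and these shares were not tested.

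**Figure D3:**
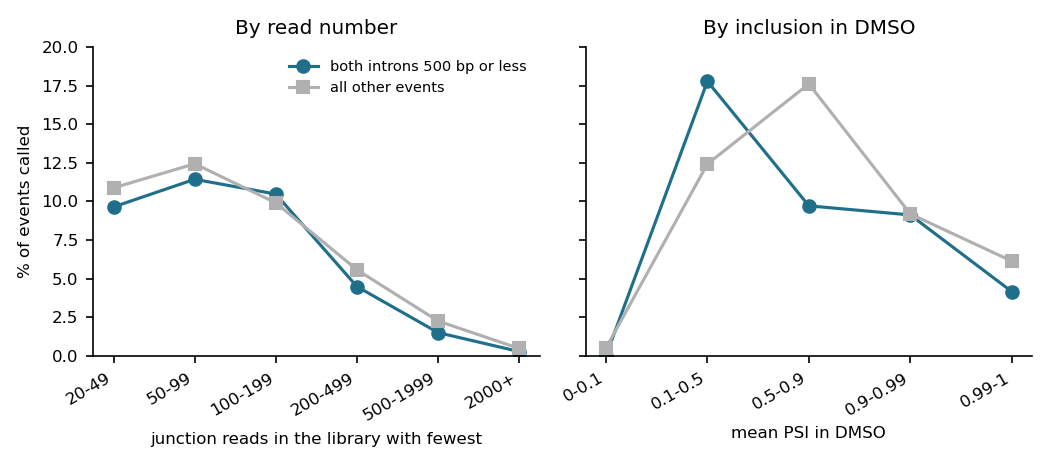
Percent of events called (vertical axis) by the number of junction reads in the library with fewest (left) and by mean PSI in DMSO (right), for events between short introns (circles) and all other events (squares). The share falls from about 10% under 200 reads to under 1% from 2000 reads on in both classes, and the classes lie apart most at a starting PSI of 0.5 to 0.9, where they are 9.71% and 17.6%.

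By starting inclusion, the exons between short introns with a PSI of 0.5 to 0.9 in DMSO were called in 10 of 103 cases (9.71%), against 17.6% of 1414 other events. From 0.1 to 0.5 the order was the opposite, with 17.8% of 45 and 12.4% of 797 events. From 0.9 to 0.99 the shares were 9.12% and 9.19%, and above 0.99 they were 4.16% and 6.13%. Exons that were rarely included in DMSO, under 0.1, had 0 calls among 99 events, although a fall of 0.1 was hardly possible there. Among events with a start over 0.99, the shares were 8.68% and 11.9% with 20 to 49 reads in the library with fewest, 10.9% and 13.3% with 50 to 99, and 9.54% and 9.14% with 100 to 199. From 200 reads on, the exons between short introns again had the lower share, with 3.88% and 4.44% up to 499 reads, 1.36% and 1.53% up to 1999, and 0.189% and 0.305% with 2000 or more.

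With 1 value per library, the difference between the classes could be tested over libraries. The median PSI of both classes was 1, the top of the scale, in both DMSO libraries. The median of the exons between short introns minus that of all other events was therefore 0 there. It was 0.00273 and 0.00352 in the pladienolide B libraries, 0.00312 higher after treatment. The exact two-sided permutation test gave p = 0.333, the smallest that 2 against 2 libraries allow. For the mean PSI the same differences were 0.0225 and 0.0228 in DMSO against 0.0314 and 0.0307. Both measures put the exons between short introns further above the rest after treatment, in values that did not overlap but cannot pass the test. For the median, the ceiling in DMSO meant that any difference of 1 sign in both treated libraries would not overlap. The classes also differed in read depth, whose part was not tested. The median ΔPSI was -0.00301 for the exons between short introns and -0.00547 for the others, and it lay at -0.000336 and -0.000998 without pladienolide B replicate 2. At like depth the medians lay closer, with -0.00531 and -0.0054 at 200 to 499 reads in the library with fewest. They were -0.000402 and -0.000395 at 2000 reads or more.

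Within the exons between short introns, intron length went with little variation in calls. Of the 388 events whose introns summed to under 200 bp, 3.35% were called, against 4.9% from 200 to 299 bp, 4.8% from 300 to 399, 5.32% from 400 to 599, 5.56% from 600 to 799 and 4.19% of the 191 events from 800 bp. By the downstream intron the share was 4.43% under 100 bp, 3.57% from 200 to 299 and 6.71% from 400 to 500. By the upstream intron it stayed between 4.22% and 6.14%. The called exons had a median upstream intron of 217.5 bp and downstream intron of 175.5 bp, those not called 195 and 192 bp.

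Exon length was alike in called and other exons, with medians of 106 and 108 bp. Of the called events 34.8% had an exon length divisible by 3, of those not called 41.3%. Among 86 exons of 30 bp or less, 2 were called (2.33%), whereas 56 of 598 exons of that size outside the class were (9.36%), with a median of 420 against 162.5 reads in the library with fewest. What moved with the calls was depth. The 244 called events had a median of 103.5 reads in the library with fewest against 455 in the others, and their share of the junction reads of a library changed by -2.66 on the log2 scale in the median, against -0.86 for the events not called. The part of depth in the calls beyond the classes given above was not tested.

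The introns beside these exons were examined in a second table, of retained intron (RI) events. There the measure is the retained share, the PSI of the intron-containing form. Of 1802 introns with enough reads, 440 were the upstream or downstream intron of an exon between short introns, and 182 of them (41.4%) were called, 170 with higher and 12 with lower retention. Over all 1802 introns, 38% were called, 35.1% with higher and 2.89% with lower retention, so the introns beside these exons were near the background. The table lists introns with reads for both forms and holds few of the introns that flank the 4900 events. Without any 1 library between 160 and 180 of the 440 introns were called.

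**Figure D4:**
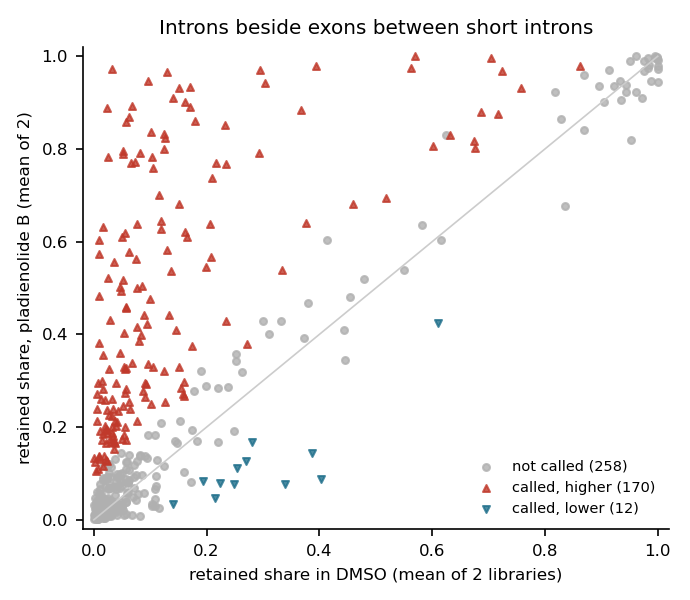
Mean retained share after pladienolide B (vertical axis) against DMSO (horizontal axis) for the 440 introns beside exons between short introns; upward triangles were called higher (170), downward triangles lower (12), and circles not called (258); the line marks equal values. Many introns near 0 in DMSO lie high above the line.

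The mean retained share of the 440 introns was 0.167 and 0.163 in DMSO, and 0.298 and 0.313 after pladienolide B, with a median change of 0.0497, beside 0.0371 over the whole table. The largest rise was that of a 346-bp intron of Osgin1, a gene of the oxidative stress response, on chromosome 8 (119442570 to 119442915). Its retained share was 0.0317 and 0.0318 in DMSO and 0.982 and 0.963 after treatment (change 0.941 ± 0.00967, adjusted p = 7.12e-10). The exon beside it had a ΔPSI of 0.00148, so that nearly all transcripts kept the intron while the spliced ones kept the exon. A 146-bp intron of the ubiquitin ligase gene Rnf167 went from 0.0947 and 0.0984 to 0.922 and 0.97, and a 71-bp intron of Wdr24, of the GATOR2 complex, from 0.18 and 0.16 to 0.926 and 0.941.

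Retention and skipping were found at the same exon in some genes. The 140-bp intron downstream of the called Aurkb exon had a retained share of 0.0444 and 0.0601 in DMSO, and of 0.778 and 0.813 after pladienolide B, whereas the exon itself had a ΔPSI of -0.179. The 461-bp intron after the called Mrps2 exon had 0.0544 and 0.0709 against 0.854 and 0.883. For Tmem259, whose exon was not called, the upstream intron of 72 bp had 0.235 and 0.236 against 0.407 and 0.449, and the downstream intron of 71 bp had 0.0113 and 0.0129 against 0.0573 and 0.0403, under the limit of 0.1. In these genes the change in retained share exceeded the change in PSI of the exon.

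In all, 521 of the 4900 events had a flanking intron in the RI table. Of the 201 with an intron of higher retention, 19 had a called exon (9.45%) and the median ΔPSI was -0.0108. Of the 320 without, 3 had a called exon (0.938%) and the median was -0.00128. The former had a median of 179 and the latter of 868.5 reads in the library with fewest. Both tables count reads over the spliced junctions of the same introns in the same libraries, so that these are not independent measurements, and the part of depth in the contrast was not tested.

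A few introns were retained less. In Gas5, a host of small nucleolar RNAs, an intron of 271 bp had a retained share of 0.344 and 0.334 in DMSO and of 0.0645 and 0.0886 after pladienolide B. In Adamts10, a secreted metalloprotease, an intron of 90 bp went from 0.402 and 0.403 to 0.129 and 0.0456, and in Ufc1, the conjugating enzyme for UFM1, an intron of 260 bp from 0.35 and 0.423 to 0.133 and 0.158. In each case the libraries of the conditions were apart, but these introns were picked from those called with lower retention, so this adds no support.

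Reads that could be assigned to the C57BL/6J or the SPRET/EiJ allele give the inclusion of an exon on both alleles of the same cells. At least 20 reads per allele and library were available for 1502 of the 4900 events, of which 84 had been called. These are subsets of the reads that made the calls, so the values are a description. The median ΔPSI of the 84 events was -0.198 on the C57BL/6J allele and -0.223 on the SPRET/EiJ allele. Both alleles fell in 78 events, both by at least 0.1 in 58, and only 1 allele by that much in 24. The absolute difference in PSI between alleles reached 0.1 in 6 of these events in DMSO and in 44 after pladienolide B, with fewer reads per event in the latter. The 84 events had been picked by their change after treatment. Over all 1502 events the difference reached 0.1 in 54 in DMSO and in 134 after pladienolide B, and both alleles fell in 636.

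**Figure D5:**
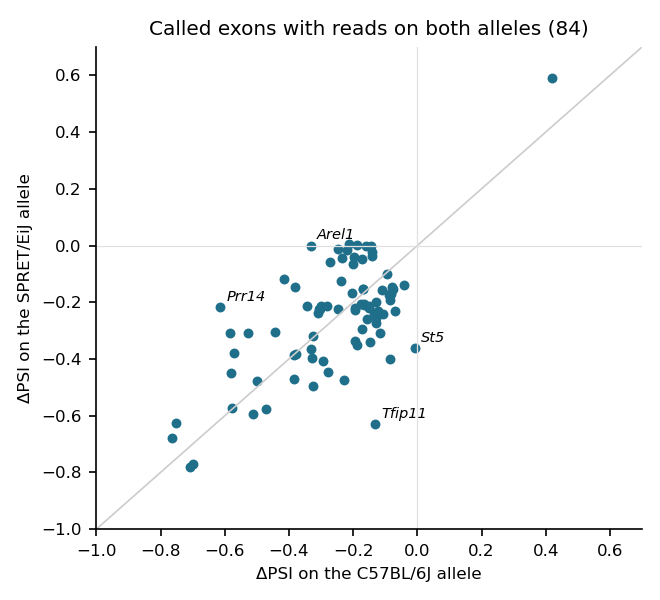
ΔPSI on the SPRET/EiJ allele (vertical axis) against that on the C57BL/6J allele (horizontal axis) for the 84 called exons between short introns with at least 20 reads per allele and library; the diagonal marks equal changes. Most points lie in the lower left, where both alleles fell, and Zfp414 lies alone at the upper right; the 4 labelled exons have the largest gap between the alleles.

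The largest gap between alleles, chosen after the values were seen, was that of the Tfip11 exon at 112335573 to 112335715 on chromosome 5, in a gene whose protein acts in spliceosome disassembly. The PSI of both alleles was at least 0.996 in DMSO. After pladienolide B it was 0.911 and 0.826 on the C57BL/6J allele and 0.377 and 0.362 on the SPRET/EiJ allele. In Prr14 the order was the opposite, with 0.478 and 0.248 on the C57BL/6J allele against 0.968 and 0.576 on the SPRET/EiJ allele. For Tnfrsf1a the values were 0.923 and 0.909 against 0.667 and 0.531. Allelic PSI rests on reads that overlap a strain variant and can lie away from the PSI of all reads: the Gadd45b exon had 0.686 and 0.754 on the C57BL/6J allele and 0.653 and 0.664 on the SPRET/EiJ allele after pladienolide B, all under the 0.882 and 0.889 of all reads.

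Untreated organs of F1 hybrid mice aged 8 weeks and embryonic stem cells (ESC), 2 libraries each, show how these exons are used elsewhere. Between 1180 of the 4900 events in liver and 2535 in ESC had at least 20 reads in both libraries, and their mean PSI was 0.895 and 0.931. The Zfp414 exon was included in a minority of transcripts in cortex (0.158 and 0.194), heart (0.199 and 0.279), kidney (0.349 and 0.311), lung (0.333 and 0.31), spleen (0.35 and 0.328) and ESC (0.124 and 0.197), and had 0.468 and 0.542 in liver. The Brd2 exon of 92 bp lay between 0.161 and 0.326 in all 7. The Mnt exon lay at 0.901 or above in each of the 6 tissues with enough reads, and the Rbm5 exon between 0.825 and 0.969 in 7. For these 4 exons, the values after pladienolide B lay outside the range of the untreated tissues. All 4 were picked from the exons called for their change after treatment, so this is a description.

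In untreated tissues, called exons had a low PSI more often than those not called. Of 201 called events with enough reads in at least 1 tissue, 40 (19.9%) had a PSI under 0.9 in the tissue with the lowest value, against 12.2% of 3320 events not called. A PSI over 0.99 in every tissue measured was found for 29.9% and 50.5%. The tissue tables list exons by their own reads, and these shares were not tested.

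The genes that hold these exons lost less of their share of the RNA, in the median, than genes with other tested events only. On the scale log2(TPM + 0.1), the median change after pladienolide B was -0.96 for 2193 genes with an exon between short introns, -1.38 for 6513 genes with other tested events only, and -1.13 over all 13221 genes with a mean TPM over 1. For the 182 genes with a called exon it was -1.31. These medians were not tested.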

How the data were processed

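The authors aligned stranded mRNA reads with HISAT2 2.0.1 to the mm10 genome and to a SPRET/EiJ genome, and counted junction reads with rMATS on the Ensembl 74 annotation. The deposited tables hold, for each event, raw counts of inclusion and skipping junction reads as lists of both libraries, with the effective lengths of the forms. The deposited expression values are TPM, made by the authors with featureCounts. The position in a list was taken as the replicate number. The deposited columns of inclusion levels, p-values and FDR hold the authors' own comparisons and were not used.

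PSI was recomputed from the counts and effective lengths (at most 298 and 149). A quasi-binomial model of inclusion against skipping reads was fitted in R 4.3.3 to all autosomal events with at least 20 reads in each library. Dispersions, held at 1 or more, were shrunk with squeezeVar (limma 3.58.1), the prior being a spline of read depth with 4 degrees of freedom, and events with under 10 reads of the less used form took the prior. F test p-values received the Benjamini-Hochberg adjustment. This form of the prior came from earlier work on these data in which several forms had been fitted to the real reads. Simulated reads with 200 changed SE events gave 89 calls, 1.12% of them false. These calls held 9% of the smaller and 79% of the larger changes put in. In the RI simulation 33% and 96% were found. A single value set the spread between libraries, although the replicates here differed more in PSI after pladienolide B than in DMSO. Recovery was not split by starting PSI. The simulation therefore does not show how many changes were missed or falsely called among exons near a PSI of 1. limma on log2 ratios of reads (0.5 added to each form) was the alternative. RI events were tested in the same way over their own table, and TPM was used on the scale log2(TPM + 0.1). Plots and counts were made with Python 3.11.15, numpy 2.4.6, pandas 2.3.3 and matplotlib 3.10.9.

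The exons, gene lists and tests were chosen with earlier results of these data known. The exons named were, of the called ones with libraries that did not overlap, the 12 largest falls and up to 12 rises with 1 event per gene, the 5 with the shortest introns, the 5 with the most reads and up to 3 called ones of each of 10 lists. Exons named outside this rule are said to be. DMSO replicates differed by 6.9 and pladienolide B replicates by 5.63 in chi-square per event, above sampling noise, and were kept as separate libraries. With no genome at hand, no sequences were read. The liver labels give strain names that differ from those of the other organs, and these libraries were used as liver of the same cross.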

Additional observations from a re-analysis of the deposited data

Results flagged for a closer look

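The X chromosome was left out of the comparisons. Among its exons between short introns, falls of at least 0.1 after pladienolide B were more common than rises of that size. Of 196 such events with at least 20 reads in each library, 16 fell by at least 0.1 (8.16%) and 2 rose by as much, whereas the DMSO libraries differed by that much in 1 of the 196. Their median ΔPSI was -0.00173. Of the 1560 other X events, 7.63% had such a fall. The DMSO difference does not measure the spread between the pladienolide B libraries. In the 4900 autosomal events, the mean absolute difference in PSI between replicates was 0.00532 in DMSO and 0.0228 after pladienolide B. An exon with no skipping read in DMSO also could not rise. The changes on the X chromosome were not tested.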

How the results depend on the processing

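The count of 244 called exons between short introns stayed within 1.5 times under 10 of 23 alternatives. It was 127 with a minimum of 100 reads, 149 with a ΔPSI of at least 0.2, 599 with no minimum change, 120 with introns of 300 bp or less, 550 with 1000 bp or less, and 101 in events with a skipping read in each library, the last chosen after seeing the data. These alternatives change how many events can be called. With a library left out it was 0 in the quasi-binomial test (range 0 to 0), and between 0 and 271 in limma. The replicate differences of the conditions had r = -0.0305 over the 4900 events. This cannot tell whether the libraries were paired, since most events lay near a PSI of 1 and the replicate numbers were taken from list positions. With the replicate block the quasi-binomial test called 0 (453 with an unadjusted p under 0.05) and limma called 300; the cause was not tested.

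The median ΔPSI of -0.00301 was -0.00189 with a minimum of 100 reads, -0.105 without events near a PSI of 0 or 1, -0.00755 with a skipping read in each library, -0.00181 as a share of reads without effective lengths, and -0.026 as a mean, and ran from -0.00307 to -0.000336 with a library left out. The median ΔPSI of these exons minus that of all other events, 0.00246, stayed above 0: 0.00284, 0.00189 and 0.00108 with 10, 50 and 100 reads, 0.00162 without events near 0 or 1, 0.00154 with 1 event per exon, 0.00283 and 0.0019 with limits of 300 and 1000 bp, 0.00101 with a skipping read in each library, 0.00154 without effective lengths, 0.00839 for means, and 0.000662 to 0.00254 with a library left out. By reads in the library with fewest, the medians of these exons and of the others were -0.0333 and -0.0348 with 20 to 49 reads. They were -0.0166 and -0.02 with 50 to 99, and -0.0103 and -0.0114 with 100 to 199. With 200 to 499 reads they were -0.00531 and -0.0054, and with 500 to 1999 they were -0.00182 and -0.00184. With 2000 or more the order was the opposite, -0.000402 and -0.000395. The cause of the shifts between settings and classes was not tested.

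The count of 182 introns beside the exons stayed within 1.5 times under its 14 alternatives, and was 156 with the replicate block. Of the named exons, Tpt1 changed direction: its value ran from -4.37e-05 to 3.34e-05 with a library left out, the latter without pladienolide B replicate 2. The values of Cpsf1 without DMSO replicate 1 and of Gnptg without pladienolide B replicate 2 were 0, and the other named exons kept their direction wherever they had a value. The Dalrd3 call was lost in limma (adjusted p = 0.0616), with a minimum of 100 reads (0.0512) and with a prior without depth trend (0.0551). The planned edgeR fit was not run on these lists of counts. Depth limits these values: an event with 20 reads cannot show a small ΔPSI.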

Other observations

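Summed over the 4900 events, skipping reads made up 1.89% and 1.87% of the junction reads in DMSO, and 1.63% and 1.66% after pladienolide B, although 3629 of the events had a lower PSI. Over all other events the shares were 3.06% and 3.07% in DMSO against 3.15% and 3.21%. The sums are led by the deepest genes.

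Transcripts of the SF3B complex had fewer TPM after treatment, as did most genes: the median change on the scale log2(TPM + 0.1) was -1.13 over 13221 genes. Sf3b1, the largest subunit, had 154 and 152 TPM in DMSO against 106 and 104, and Sf3b3 had 214 and 210 against 108 and 107. Phf5a, a small subunit of the complex, had 80.7 and 85.3 against 50.1 and 57.2.

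The exons between short introns were unevenly spread over the chromosomes. They made up 15.3% of the events tested on chromosome 17, 14.5% on chromosome 19 and 13.3% on chromosome 11, against 2.6% on chromosome 13 and 3.28% on chromosome 12. The share of them called ran from 0 of 52 on chromosome 18 and 5 of 243 (2.06%) on chromosome 8 to 16 of 163 (9.82%) on chromosome 14 and 8 of 66 (12.1%) on chromosome 12, beside 4.98% over all chromosomes.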
